A study of Glycine max with 12 samples.

Results

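The 100 genes described here varied least in read share across 12 RNA-seq libraries of soybean (*Glycine max*) flower buds, which came from a transgenic line and its recipient at high and normal temperature. They were chosen by measured values alone. Each gene's counts were expressed as CPM, that is, per 1000000 counts of the library. Genes with a Glyma identifier and a mean of at least 50 CPM were then ranked by the standard deviation (SD) of log2(CPM + 1) over the 12 libraries, and the lowest 100 were kept. They were 100 of 4553 genes above that level, or 2.20%, and 100 of 52872 Glyma genes counted. A further 936 rows were genes assembled by the authors without a Glyma identifier. Of these, 10 reached 50 CPM and the least variable had an SD of 0.169, so none would have entered the set.

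The tested line, *GmMYB21a-OE2*, overexpresses the transcription factor gene *GmMYB21a* from the pTF101.1 vector. Its recipient and control, TL1 (Tianlong No. 1), is a cultivar that serves as the restorer of a cytoplasmic male sterile soybean. Plants were kept at 40 °C by day and 34 °C by night for 5 d from the start of flowering (HT), or at 28 °C and 22 °C (NT), and buds were collected at 3 heights of the plant. There were 3 libraries in each of 4 groups, HT *GmMYB21a-OE2*, HT TL1, NT *GmMYB21a-OE2* and NT TL1. *GmMYB21a-OE2* is 1 transgenic line, so the transgene and anything else particular to that line cannot be told apart. The treatment label reads high temperature for all 12 libraries, whereas the titles name 6 of them NT, and the titles were followed. Totals lay between 32058303 and 39654590 counts. In such bulk samples fewer cells of a type and less RNA per cell cannot be told apart.

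*GmMYB21a* itself (Glyma.19G006500) had 10.5 to 12.2 CPM in the HT *GmMYB21a-OE2* libraries, against 0.811 to 1.12 CPM in HT TL1. At NT it had 36.3 to 40.3 CPM in *GmMYB21a-OE2*, against 5.25 to 6.32 CPM in TL1. The labels of line were therefore matched by the targeted gene in all 12 libraries. Glyma.07G043300, a CYP704B1 cytochrome P450 gene whose Arabidopsis counterpart acts in pollen wall formation, had 3.18 to 4.15 CPM in HT *GmMYB21a-OE2* against 0.576 to 0.761 CPM in HT TL1, and 3.79 to 5.83 CPM in NT *GmMYB21a-OE2* against 2.81 to 7.05 CPM in NT TL1. It was thus lowest in all 3 HT TL1 libraries, and the part of this difference in the results on the 100 genes was not tested. Other floral and leaf markers were not matched to identifiers here. The first of these genes is the one overexpressed, and both had at most 1.12 CPM in HT TL1. The tissue label was therefore not checked.

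Genes of low variance matter in expression studies as internal controls. In quantitative PCR the level of a target is divided by that of a control transcript, and any change of the control enters the result. Housekeeping genes such as those of actin, tubulin, ubiquitin and elongation factors are the usual choice, but their level can depend on tissue and stress. Plant cells under heat induce chaperones strongly while many other transcripts decline. The 100 genes could not be given names or functions from the sources used here, so they are described by their Glyma identifiers, in which the digits before the letter G give the chromosome. No statement on their roles is made, and levels of RNA are not compared between genes because gene lengths were not used here.

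Glyma.10G048100, on chromosome 10, had the lowest SD of all, 0.0295. Its values were 168, 173 and 177 CPM in HT *GmMYB21a-OE2* against 169.7, 174 and 176 CPM in HT TL1. At NT they were 176, 177 and 176 CPM in *GmMYB21a-OE2* against 174, 166 and 171 CPM in TL1. Only the NT lines did not overlap, and the highest library exceeded the lowest 1.06-fold.

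The second, Glyma.07G159300 (SD 0.0371), overlapped between the groups in all 4 comparisons. It had 124, 130.2 and 130.1 CPM in HT *GmMYB21a-OE2* against 132, 125 and 122 CPM in HT TL1. At NT it had 125, 126 and 128 CPM in *GmMYB21a-OE2* against 132, 130.4 and 128 CPM in TL1. Glyma.01G222400, the third, also overlapped in all 4 comparisons and came closest to the spread that counting reads alone would give, with an SD 1.14 times as large. Its values were 50.7, 53.0 and 54.5 CPM in HT *GmMYB21a-OE2* against 53.3, 53.4 and 54.4 CPM in HT TL1. At NT they were 52.9, 49.9 and 52.1 CPM in *GmMYB21a-OE2* against 51.9, 53.4 and 53.1 CPM in TL1.

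Glyma.10G038600 was highest in NT TL1, at 79.3, 79.9 and 84.3 CPM, where every library lay above every one of HT TL1 and of NT *GmMYB21a-OE2*. It had 77.8, 79.3 and 77.7 CPM in HT *GmMYB21a-OE2*, 79.1, 75.2 and 79.0 CPM in HT TL1, and 79.0, 76.3 and 77.9 CPM in NT *GmMYB21a-OE2*. Glyma.03G002400 overlapped in all 4 comparisons, with its lowest values of 114, 113 and 119 CPM in HT *GmMYB21a-OE2* and with 118, 119 and 121 CPM in HT TL1. It had 124, 119 and 119.6 CPM in NT *GmMYB21a-OE2* against 121, 119 and 123 CPM in NT TL1. Glyma.13G323600 had 84.0, 86.7 and 88.8 CPM in HT *GmMYB21a-OE2*, below all 3 values of HT TL1, which were 89.2, 88.9 and 89.4 CPM. At NT its lines overlapped, with 84.5, 91.5 and 90.2 CPM in *GmMYB21a-OE2* against 92.1, 88.8 and 87.6 CPM in TL1.

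The remaining 4 of the first 10 had SDs between 0.0413 and 0.0421. Glyma.08G026500 overlapped in all comparisons, with group means of 102.3 ± 4.60 CPM in HT *GmMYB21a-OE2*, 104.1 ± 3.04 CPM in HT TL1, 102.9 ± 2.92 CPM in NT *GmMYB21a-OE2* and 105.1 ± 1.71 CPM in NT TL1 (SD, n = 3 each). Glyma.05G220200 was lower in HT *GmMYB21a-OE2*, at 118, 119 and 114 CPM, than in HT TL1, at 127, 126 and 122 CPM, with NT values between 119.7 and 126 CPM. Glyma.11G023900 separated by temperature in TL1, with 64.7, 65.5 and 65.1 CPM at HT against 69.5, 68.3 and 68.5 CPM at NT. In *GmMYB21a-OE2* the same gene overlapped, with 66.3, 64.2 and 65.5 CPM at HT against 69.7, 65.4 and 68.1 CPM at NT. Glyma.10G158700 stood high in 1 group. It had 56.5, 55.5 and 56.4 CPM in HT TL1, and between 51.8 and 54.2 CPM in the other 9 libraries.

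**Figure D1:**
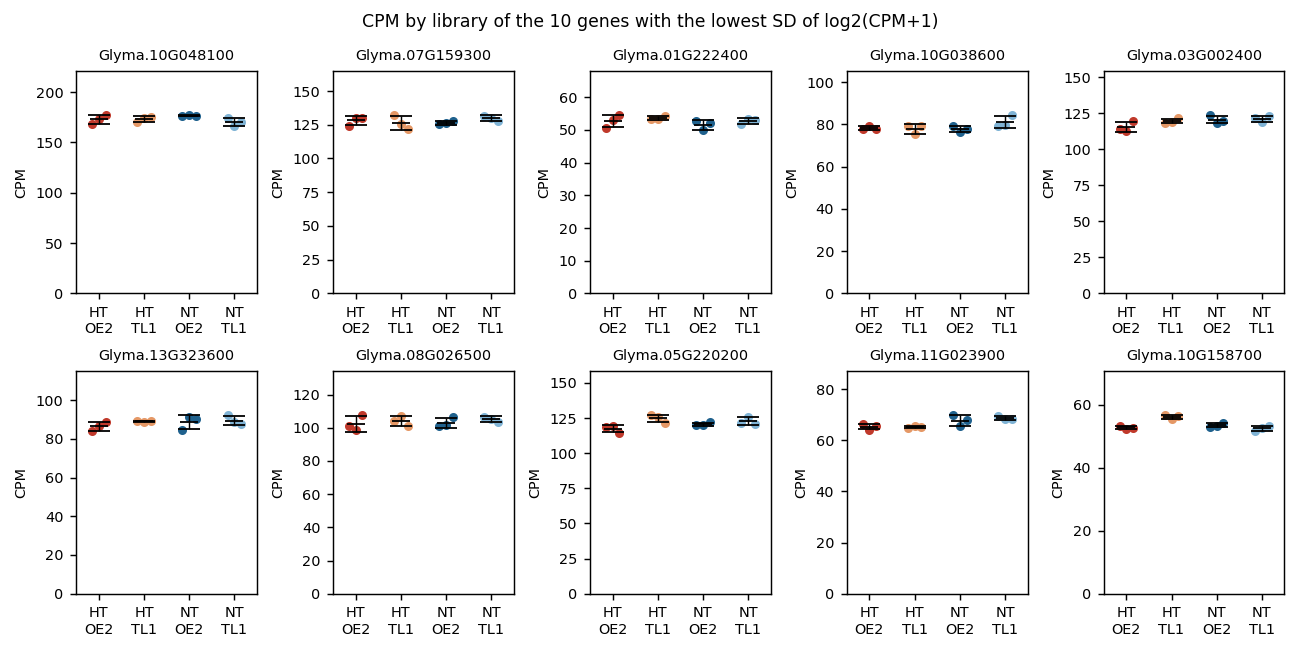
CPM of the 10 least variable genes in the 4 groups of 3 libraries, on axes that start at 0 (points, single libraries; lines, mean ± SD; OE2, *GmMYB21a-OE2*). The highest and lowest libraries of a gene differ by 1.06-fold for Glyma.10G048100 and by 1.12-fold for Glyma.10G038600, and Glyma.10G158700 is highest in the 3 HT TL1 libraries.

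Over the 100 genes the SD ran from 0.0295 to 0.0683 with a median of 0.0590, against a median of 0.299 and a maximum of 2.61 over all 4553 genes. The coefficient of variation of CPM was 2.04% to 4.91% for the 100 and had a median of 20.8% over the 4553. The highest library exceeded the lowest between 1.06-fold and 1.22-fold, and 98 of the 100 genes stayed under 1.2-fold. Over the 4553 genes the median was 1.74-fold, and 1654 of them (36.3%) spanned 2-fold or more. These values are the ones by which the genes were chosen and are given as a description.

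The boundary of the set was a shallow one. The last 5 genes inside it, Glyma.04G248300, Glyma.07G033100, Glyma.10G173000, Glyma.09G270200 and Glyma.14G039100, had SDs between 0.0678 and 0.0683. The first 5 outside it, Glyma.12G063700, Glyma.09G167100, Glyma.06G019400, Glyma.08G255800 and Glyma.10G181700, had SDs between 0.0685 and 0.0689. Glyma.12G063700, just outside, spanned 1.15-fold, whereas Glyma.14G039100, just inside, spanned 1.21-fold.

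Reading depth sets a floor under such values. For the counts of these genes, of which the lowest in any library was 1572, Poisson counting alone gives an SD of 0.0148 to 0.0331 on the log2 scale. The observed SD was 1.14 to 4.05 times that floor with a median of 2.14. The ratio was under 1.5 for 5 of the 100 genes and over 3 for another 5, and its median over the 4553 genes was 11.7. For most of the 100 the libraries thus differed by more than counting error, which is the only error the floor covers.

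The set was not drawn from the genes with the most reads. Mean values ran from 50.5 to 262 CPM with a median of 78.1, beside 78.4 for the 4553 genes, which reached 8664 CPM. There were 20 genes between 50 and 60 CPM, 50 between 60 and 100, 28 between 100 and 200, and 2 above, and these were 1.90%, 2.50%, 2.53% and 0.505% of the genes in those intervals. Glyma.13G240600, with the most reads of the 100, had 263, 272 and 255.3 CPM in HT *GmMYB21a-OE2*, just above the 252, 251 and 254.9 CPM of HT TL1. At NT it had 282, 263 and 279.7 CPM in *GmMYB21a-OE2* against 258, 254 and 257 CPM in TL1, again without overlap. Its counting floor was the lowest of the set, and its SD of 0.0569 was 3.85 times that floor.

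Glyma.19G021500, next in reads, had the highest ratio to its floor, 4.05. It had 205, 232 and 235 CPM in HT *GmMYB21a-OE2* against 237, 228 and 217 CPM in HT TL1, and 222, 232 and 234 CPM in NT *GmMYB21a-OE2* against 217, 225 and 214 CPM in NT TL1. The groups overlapped in all 4 comparisons, so its spread lay largely within groups, and 18.0% of its variance lay between them. Glyma.07G004300 had 177 to 183 CPM in HT *GmMYB21a-OE2*, below the 191 to 195 CPM of NT *GmMYB21a-OE2*. Glyma.08G015900 had 189 to 194 CPM in HT TL1, above the 175 to 180.4 CPM of NT TL1. At the other end Glyma.06G057700, with the fewest reads of the 100, had 47.1 to 50.4 CPM in HT *GmMYB21a-OE2* against 50.4 to 54.0 CPM in HT TL1, and 48.0 to 53.0 CPM in NT *GmMYB21a-OE2* against 49.8 to 52.9 CPM in NT TL1. It overlapped in all 4 comparisons. Glyma.06G046000, Glyma.03G130100, Glyma.10G173000 and Glyma.18G230100, the next lowest in reads, had means between 50.8 and 51.7 CPM.

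**Figure D2:**
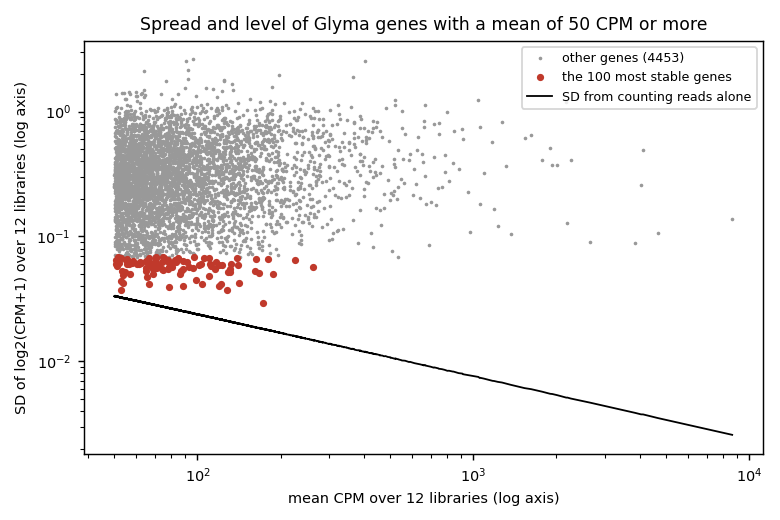
SD of log2(CPM + 1) over the 12 libraries against mean CPM (log axes) for the 4553 genes of 50 CPM or more, with the 100 genes in colour and the SD from counting reads alone as a line. The 100 genes lie between 0.0295 and 0.0683, at means of 50.5 to 262 CPM, against a median of 0.299 for all 4553 genes.

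All 20 chromosomes held between 1 and 8 of the genes. Chromosomes 6, 8, 10 and 13 had 8 each, which were 2.76%, 2.16%, 3.03% and 2.64% of the genes of 50 CPM or more on them. Chromosome 2 had 1 of 233. Each is a share of the chromosome's own genes and was not tested.

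Within the set, the spread lay between the 4 groups to very different degrees. The share of a gene's variance between groups was 5.84% to 88.8% with a median of 47.0%. It exceeded 50% for 45 genes and was under 25% for 22. With 4 groups of 3 libraries, 27.3% is the share expected with no group difference. Of the 4553 genes, 4282 (94.0%) exceeded 50%, with a median of 95.3%. Glyma.08G361700 had the lowest share. Its values were 79.9, 87.1 and 93.8 CPM in HT *GmMYB21a-OE2* against 91.2, 83.7 and 91.0 CPM in HT TL1, and 84.8, 88.5 and 91.5 CPM in NT *GmMYB21a-OE2* against 88.4, 89.3 and 90.1 CPM in NT TL1. The first of these groups alone spanned the values of all the others. Glyma.10G158700, given above for its high HT TL1 values, had the highest share.

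On total counts, group means differed little in any comparison, as the choice ensured. Differences below are those of mean log2(CPM + 1), the first group named minus the second. At HT, *GmMYB21a-OE2* minus TL1 ran from −0.16 to 0.12, and 84 of the 100 genes lay under 0.1 in size, against 45.0% of the 4553 genes. At NT the same difference ran from −0.12 to 0.14, with 93 genes under 0.1, against 60.2%. In *GmMYB21a-OE2*, HT minus NT ran from −0.13 to 0.14, with 88 genes under 0.1, against 9.49%. In TL1, HT minus NT ran from −0.11 to 0.13, with 90 genes under 0.1, against 10.3%. All 4 differences were under 0.1 for 64 of the genes and under 0.05 for 17. Of the 4553 genes, these 64 included, 112 had all 4 under 0.1. These values are on total counts, the scale of the choice. With library sizes rescaled by the trimmed mean of M-values (TMM) and with the median-of-ratios size factors of DESeq2 (RLE) the genes under 0.1 numbered 45 and 15 for heat in *GmMYB21a-OE2*, 77 and 51 for the line at HT, 78 and 74 for the line at NT, and 92 and 93 for heat in TL1.

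The genes at the ends of these ranges stood between rank 71 and rank 100 of the set by SD. Glyma.07G033100 had the highest line difference at HT, with 100.9, 106 and 105.5 CPM in *GmMYB21a-OE2* against 94.6, 97.6 and 95.3 CPM in TL1. Glyma.14G039100 had the lowest, with 73.4, 71.2 and 68.4 CPM in *GmMYB21a-OE2* against 77.2, 78.3 and 82.9 CPM in TL1. Neither gene overlapped between the lines at HT, and both overlapped at NT, where Glyma.14G039100 had 74.5, 76.5 and 75.3 CPM in *GmMYB21a-OE2* against 74.5, 76.0 and 73.9 CPM in TL1. Glyma.18G122000 had the highest line difference at NT, with 75.1, 74.9 and 75.8 CPM in *GmMYB21a-OE2* against 68.2, 68.5 and 67.5 CPM in TL1. It also had the lowest heat difference in *GmMYB21a-OE2*, with 67.8, 66.3 and 71.9 CPM at HT, below all 3 NT values. Glyma.17G065500 had the lowest line difference at NT, with 70.4, 71.5 and 70.0 CPM in *GmMYB21a-OE2* against 74.0, 75.7 and 80.7 CPM in TL1.

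The heat differences were led by Glyma.18G230100 in *GmMYB21a-OE2*, with 51.8, 55.0 and 53.6 CPM at HT against 47.1, 48.6 and 50.1 CPM at NT. In TL1 the highest was Glyma.15G059900, with 58.5, 59.5 and 57.5 CPM at HT against 54.1, 53.9 and 52.6 CPM at NT. The lowest in TL1 was Glyma.16G104600, with 53.6, 51.7 and 56.3 CPM at HT against 59.4, 55.4 and 60.2 CPM at NT. The first of the 3 was fully separated, the second also, and the last overlapped by 1 library of each group.

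Non-overlap of the 3 libraries of one group with the 3 of the other was counted for each comparison. Between the lines at HT it held for 23 of the 100 genes, of which 21 were lower in *GmMYB21a-OE2*, against 39.3% of the 4553 genes. Between the lines at NT it held for 25, of which 13 were lower, against 41.3%. Between HT and NT it held for 27 in *GmMYB21a-OE2*, of which 20 were lower at HT, against 85.6%. In TL1 it held for 31, of which 22 were higher at HT, against 90.1%. The genes were chosen on the same libraries, so nothing is read from these counts.

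The same comparisons were fitted over all genes with edgeR's quasi-likelihood test, in which library sizes are rescaled by TMM and genes are called at a Benjamini-Hochberg adjusted p below 0.05. All 100 genes passed its filter on low counts. For the line at HT, 0 of the 100 were called, where 11.1% of all genes tested were. An unadjusted p below 0.05 in the edgeR test was reached by 2, and the count over all genes tested is not given here. DESeq2 also called 0, where 4491 of 42124 genes tested were called. For the line at NT, 4 were called, all higher in *GmMYB21a-OE2*, against 10.8%. When the replicate number was a block 8 were called, and 1 with total counts as library sizes. Of all 41292 genes tested, 5398 and 4788 were called in those fits. Glyma.18G122000 was among the 4, with a log2 change of 0.20 and an adjusted p of 0.00929 by edgeR. For heat in TL1, 6 were called, 3 higher and 3 lower at HT, against 71.2%. With total counts as library sizes 8 were called, all 8 higher, and with RLE size factors 4, of which 1 was higher. Of all 41422 genes tested, 29490 and 29433 were called in those fits. Because the choice used these contrasts, the counts are only a description.

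Single libraries moved these counts, and the counts over all genes tested as well. At NT the edgeR test called 10 genes without replicate 1 of *GmMYB21a-OE2*, where 5631 of 41842 genes tested were called. It called 1 without replicate 3 of *GmMYB21a-OE2* or without any of the 3 TL1 libraries, where 2599 to 3068 genes were called. For the line at HT it called 2 without replicate 3 of HT *GmMYB21a-OE2*, where 5906 of 41704 genes tested were called. For heat in TL1 it called 10 without replicate 3 of HT TL1, 0 without its replicate 2, and 1 or 2 without a library of NT TL1. Over all genes tested 28816, 28193 and 27808 to 28203 were called in those fits.

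For heat in *GmMYB21a-OE2* the call depended on how library size was defined. The edgeR test called 42 of the 100 genes, all lower at HT and by at most 0.26 on the log2 scale, against 67.1% of all genes tested. With total counts as library sizes, the scale on which the genes were chosen, it called 0, where 28430 of 41717 genes tested were called. The interaction of line and temperature was called for 9, all negative, against 12.4%. With total counts as library sizes it was likewise called for 0, where 4820 of 42839 genes tested were called. Without replicate 3 of HT *GmMYB21a-OE2* the heat count was 67, where 28573 of 42354 genes tested were called. Without any other single library of that comparison it was 18 to 26, where 25606 to 27109 of all genes tested were called. The interaction count was 31 without replicate 3 of HT *GmMYB21a-OE2*, where 6768 of 43348 genes tested were called. It was 0 without replicate 2 of NT *GmMYB21a-OE2*, where 3582 of 43389 were called. It was 1 to 5 without replicate 2 of HT *GmMYB21a-OE2* or HT TL1, replicate 3 of NT *GmMYB21a-OE2* or any NT TL1 library. Without any of the others it was 6 to 10. Over all genes tested 3557 to 4568 and 4274 to 5583 were called in those fits, in that order. In the fits with TMM, 54 of the 100 genes had no call in any of these comparisons. That total depends on the scaling in the same way, and no such total over all genes tested is given, so nothing is read from it.

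The scaling itself is shown by the group differences. On total counts the median heat difference of the 100 genes in *GmMYB21a-OE2* was −0.02, with 60 genes below 0. With TMM it was −0.11, with 96 below 0, and with RLE it was −0.16, with 99 below 0. The shift was common to all genes, since the median of the 4553 moved by −0.09 with TMM and by −0.14 with RLE. For the line at NT the median of the 100 moved in the other direction and changed sign, at 0.06 with either scaling and −0.0002 on total counts. For heat in TL1 it stayed between 0.0015 and 0.022. Relative to the shift of all 4553 genes, the 100 thus moved by the same amount under each scaling, and the sign of their median heat difference in *GmMYB21a-OE2* did not change.

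**Figure D3:**
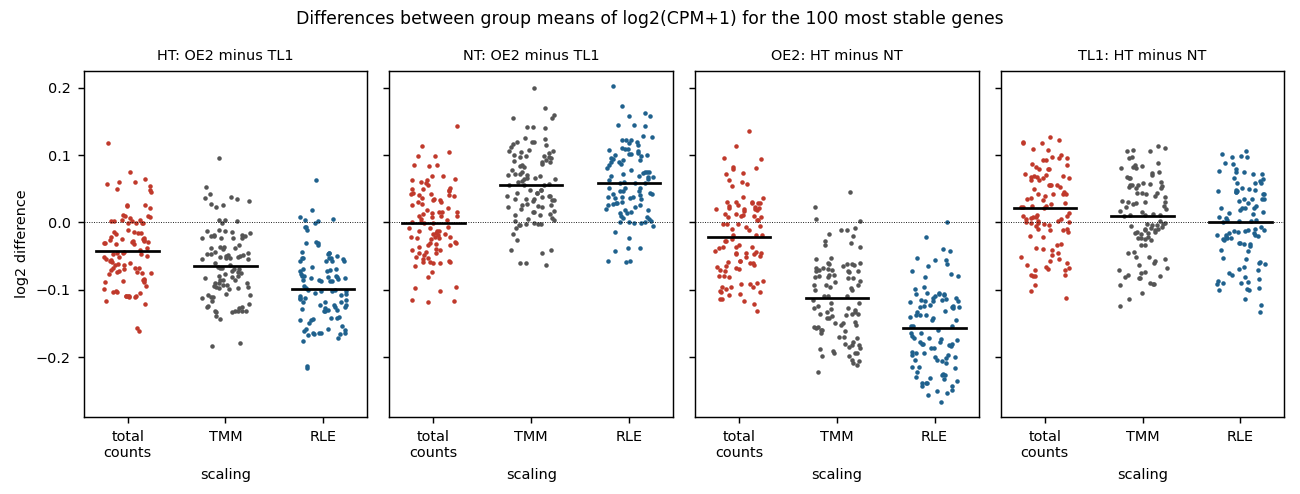
Log2 differences of the 100 genes (points, single genes; bars, medians) in the 4 comparisons under total-count, TMM and RLE scaling, the first group named minus the second. The median for heat in *GmMYB21a-OE2* (OE2) is −0.02 on total counts, −0.11 with TMM and −0.16 with RLE, while that for heat in TL1 stays between 0.0015 and 0.022.

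The libraries that moved the genes most were at HT. The mean deviation of the 100 genes from their own means was −0.0445, −0.0193 and 0.0046 in HT *GmMYB21a-OE2* and 0.0324, 0.0137 and 0.0105 in HT TL1, in log2 units. In the 6 NT libraries it lay between −0.0059 and 0.0053. Replicate 1 of HT *GmMYB21a-OE2* was the lowest library for 28 genes, and replicate 1 of HT TL1 was the highest for 23. The summed reads of the 100 genes were 8933 ± 165 CPM in HT *GmMYB21a-OE2*, 9161 ± 77.4 CPM in HT TL1, 9068 ± 28.2 CPM in NT *GmMYB21a-OE2* and 9032 ± 12.7 CPM in NT TL1 (SD, n = 3 each). The TMM factors lay between 0.952 in NT *GmMYB21a-OE2* and 1.04 in HT *GmMYB21a-OE2*, and the 10 genes with the most reads took 3.66% to 4.15% of a library. The part of these library differences in the results was not tested.

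**Figure D4:**
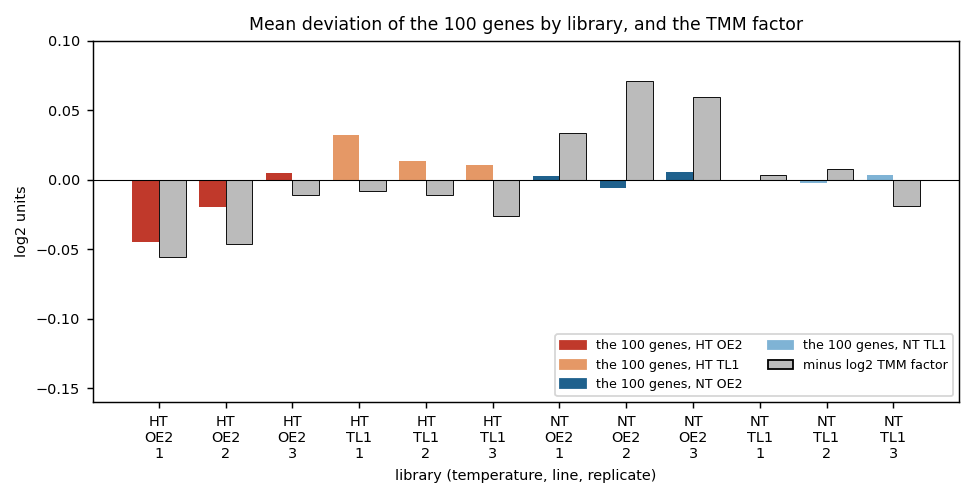
Mean deviation of the 100 genes from their own means (coloured bars, log2 units) in each of the 12 libraries, beside the negative log2 TMM factor of the library (grey bars; OE2, *GmMYB21a-OE2*). Replicate 1 of HT *GmMYB21a-OE2* is lowest at −0.0445 and replicate 1 of HT TL1 is highest at 0.0324, and the 6 NT libraries lie between −0.0059 and 0.0053.

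Membership followed the scaling as well. Of the 100 genes, 55 were also among the lowest 100 with TMM and 36 with RLE, and those 36 were in all 3 sets. The median rank of the genes was 89.5 with TMM and 145 with RLE, and the worst was 336 and 432. Glyma.01G222400 ranked 3, 2 and 9 on total counts, TMM and RLE. Glyma.15G013600, singled out after its values were seen, ranked 27 on total counts and 1 with both TMM and RLE, where its SD was 0.0337 and 0.0356. Leaving out 1 library at a time kept between 73 and 92 of the 100 genes, fewest without replicate 3 of HT *GmMYB21a-OE2*, and 65 were kept in all 12 of these choices. There were 26 genes that were kept in all 12 and were in all 3 scaled sets.

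Choosing on 6 libraries and measuring in the other 6 gives a spread that the choice did not fix. When 100 genes were chosen by the same rule on the 6 *GmMYB21a-OE2* libraries, their median SD in the 6 TL1 libraries was 0.0770, against 0.281 for all genes ranked, and 50 of them were in the lowest 10% there. When they were chosen on TL1, the median SD in *GmMYB21a-OE2* was 0.0951, against 0.320, with 56 in the lowest 10%. Both choices cover HT and NT. When 100 genes were chosen on the 6 HT libraries, their median SD in the 6 NT libraries was 0.0653, close to the 0.0732 of all genes, and 11 were in the lowest 10%. Chosen on NT, the median in HT was 0.0961 against 0.111, with 19 in the lowest 10%.

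Genes chosen at 1 temperature differed between temperatures nearly as often as all genes ranked did, and the difference in share was not tested. Of the 100 genes chosen on HT, 45 differed between HT and NT by over 0.5 on the log2 scale when the lines were pooled, against 51.0% of all genes ranked, with a median size of 0.472 against 0.509. Of those chosen on NT, 44 did, against 52.9%, with a median of 0.435 against 0.536. The largest such differences were 1.66 and 1.70. Of the 100 genes chosen on all 12 libraries, 42 were also chosen on *GmMYB21a-OE2* alone, 33 on TL1 alone, 9 on HT alone and 13 on NT alone. None was in all 4 of those sets, and 31 were in none.

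**Figure D5:**
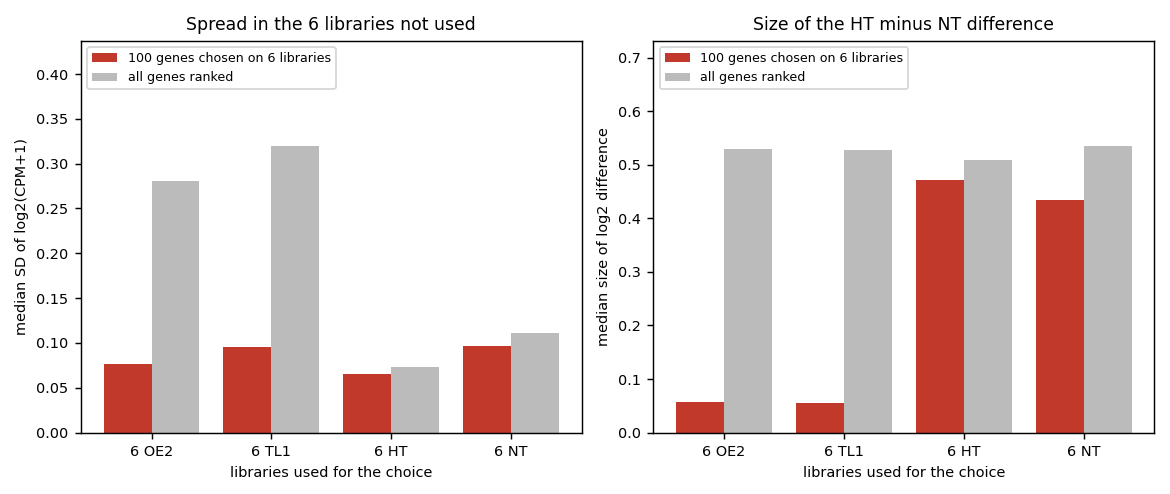
Left, median SD of log2(CPM + 1) in the 6 libraries not used, for 100 genes chosen on the 6 *GmMYB21a-OE2* (OE2), TL1, HT or NT libraries, beside all genes ranked; right, the median size of their HT minus NT difference over both lines, in which the choices on *GmMYB21a-OE2* and TL1 used the temperatures of their own line. Medians on the left are 0.0770, 0.0951, 0.0653 and 0.0961 for the chosen genes, and medians on the right are 0.472 and 0.435 for the genes chosen on HT and on NT.

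The evenness of the genes relative to one another was described by the geNorm measure M, the mean SD of a gene's log2 ratios to the other 99. A ratio between genes of a library does not depend on how the library is scaled. The genes were chosen for low SD over these same libraries, so their ratios and their combined values on total counts had to vary little. No such values are given for other genes, and those below are a description. M ran from 0.0631 to 0.0944 with a median of 0.0772. It was lowest for Glyma.01G222400, Glyma.10G048100 and Glyma.03G002400 and highest for Glyma.07G033100. Over the 4950 pairs the SD of the log2 ratio was 0.0313 to 0.130. When the first genes by SD were combined as a geometric mean, its SD over the 12 libraries was 0.0296 for 1 gene, 0.0197 for 3, 0.0175 for 10, 0.0155 for 20 and 0.0188 for all 100, on total counts. After TMM the geometric mean had an SD of 0.0364 for 1 gene and 0.0369 for all 100.

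The 100 genes were also used as a denominator for *GmMYB21a*. Because they were chosen for even CPM over these libraries, the ratio had to stay close to the total-count value, and the values are a description. At HT the log2 difference of *GmMYB21a-OE2* minus TL1 was 3.63 on total counts and 3.67 relative to the geometric mean of the 100 genes. At NT it was 2.74 on both. The difference of HT minus NT in *GmMYB21a-OE2* was −1.70 on total counts and −1.68 relative to the 100 genes, and in TL1 it was −2.59 and −2.61. The study reports induction of the gene by HT, measured by quantitative PCR in the restorer lines N4608 and YY6. Line and assay differ from those here, and the unlike direction was not tested.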

How the data were processed

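Bud RNA of 2 soybean lines at 2 temperatures was sequenced, with 3 replicates in each of 4 groups. The study describes the replicates as independent biological ones, and nothing else says how they were taken, so p-values measure the spread between these libraries. The authors deposited 1 table of raw read counts per gene, which was used as deposited. Per the labels their processing used StringTie 2.1.3b, and the counting program and genome build are not given in the sources used here. The table has 53808 rows, 936 of them genes without a Glyma identifier. Groups were taken from the sample titles. No pair of replicates was a duplicate, since the lowest chi-square per degree of freedom between counts of replicates was 2.74.

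CPM was computed from the column totals, and the 100 genes were those with the lowest SD of log2(CPM + 1), with a pseudocount of 1 CPM, among Glyma genes with a mean of at least 50 CPM. The set, its rule and the lists to be described were chosen with earlier results of these data known. The genes named are the 10 with the lowest SD, the 5 with the most and the 5 with the fewest reads, those at either side of the boundary, the highest and lowest difference in each comparison and in the share of variance between groups, and the 3 with the lowest geNorm M. Glyma.15G013600 lies outside this rule and was singled out after its values were seen. Gene lists by product name could not be applied, because the RefSeq table of assembly Glycine_max_v4.0 paired 0 identifiers of the file. The study's tables of differentially expressed genes that could be read held 0 of the 100. Because the 100 were chosen for low spread over the same libraries, that absence followed from the choice and nothing is read from it.

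All genes were tested with edgeR 4.0.16 in R 4.3.3 (quasi-likelihood test, TMM, filterByExpr, Benjamini-Hochberg adjustment over all genes tested), each comparison on its own 6 libraries and the interaction on all 12. The code was tested on simulated data. DESeq2 1.42.0, RLE size factors, no filter, a replicate block, total counts as library sizes (added after seeing the data), other minimum levels and measures of spread, subsets of libraries and leaving out each library were the alternatives. Between the NT libraries of the lines, the 3 correlations of deviations by replicate number were between 0.175 and 0.324. All 6 libraries correlated best with their own number. All 18 such correlations ran from −0.584 to 0.554, and whether the libraries were paired was not tested. This match at NT comes from the data, since the labels say only that the numbers are shared. Python 3.11.15, numpy 2.4.6, pandas 2.3.3 and matplotlib 3.10.9 were used for the rest.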

Additional observations from a re-analysis of the deposited data

Results flagged for a closer look

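The interaction test of edgeR over all genes called a change of the line difference between temperatures for 4 genes named in the report. Of these, 3 belong to the 100 and were named for the highest or lowest difference in a comparison of the same libraries. Those libraries also chose the 100. They also set the rank by SD for which the fourth, Glyma.08G255800, was named. The calls of all 4 are therefore a description. Glyma.14G039100 had an interaction of −0.29 on the log2 scale (adjusted p = 0.0169), with means of 71.0 ± 2.53 CPM in HT *GmMYB21a-OE2* against 79.5 ± 3.01 CPM in HT TL1, and 75.4 ± 0.992 CPM in NT *GmMYB21a-OE2* against 74.8 ± 1.06 CPM in NT TL1 (SD, n = 3 each). In Glyma.15G059900 the interaction was −0.30 (adjusted p = 0.0298). Its libraries did not overlap in 3 of the 4 comparisons, with means of 53.9 ± 3.15 CPM in HT *GmMYB21a-OE2* against 58.5 ± 1.03 CPM in HT TL1, and 56.2 ± 1.11 CPM in NT *GmMYB21a-OE2* against 53.5 ± 0.787 CPM in NT TL1. For Glyma.18G122000 it was −0.31 (adjusted p = 0.0172), with 68.7 ± 2.89 CPM in HT *GmMYB21a-OE2* against 71.2 ± 2.49 CPM in HT TL1, and 75.2 ± 0.484 CPM in NT *GmMYB21a-OE2* against 68.0 ± 0.537 CPM in NT TL1. Glyma.08G255800, just outside the 100, had an interaction of −0.31 (adjusted p = 0.0112), with 136.3 ± 1.96 CPM in HT *GmMYB21a-OE2* against 147.1 ± 2.20 CPM in HT TL1, and 147.7 ± 8.98 CPM in NT *GmMYB21a-OE2* against 138.8 ± 4.30 CPM in NT TL1. Of the 100 genes 9 were called, against 12.4% of all genes tested. The count was 31 without replicate 3 of HT *GmMYB21a-OE2* and 0 without replicate 2 of NT *GmMYB21a-OE2*. With total counts as library sizes none of the 100 genes was called, and the result of that fit for Glyma.08G255800 is not given here.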

How the results depend on the processing

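Of the 100 genes, 55 were also chosen with TMM library sizes, 36 with RLE size factors, 57 with a minimum mean of 20 CPM and 30 with one of 100 CPM. The choice on the 6 *GmMYB21a-OE2* libraries shared 42 of them, that on TL1 33, that on HT 9 and that on NT 13. Between 79 and 98 were shared under totals over Glyma rows, a smaller pseudocount, the coefficient of variation, the range or a replicate block, and between 73 and 92 without 1 library. Their median SD was 0.0717 with TMM and 0.0821 with RLE, and within 0.0557 to 0.0602 without 1 library.

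Counts of genes called by edgeR were less steady. Without 1 library they ranged from 0 to 2 for the line at HT, 1 to 10 for the line at NT, 0 to 10 for heat in TL1, 18 to 67 for heat in *GmMYB21a-OE2* and 0 to 31 for the interaction. In the same order, the genes called over all tested were 2228 to 5906, 2599 to 5631, 27808 to 28816, 25606 to 28573 and 3557 to 6768. With total counts as library sizes, chosen after seeing the data, they were 1 for the line at NT and 0 for heat in *GmMYB21a-OE2* and for the interaction. With no filter on low counts the interaction was called for 4, where 4373 of 50826 genes tested were called. The replicate block gave 8 for the line at NT and changed no other count by more than 1.5 times. Outside NT the libraries did not match by replicate number throughout, with correlations of deviations between −0.584 and 0.554. For the line at HT, heat in *GmMYB21a-OE2* and heat in TL1, 0, 3 and 1 of 6 libraries correlated best with their own number. All other alternatives run kept the counts within 1.5 times. Changes of a few percent are near the counting error of genes at 50 CPM at this depth.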
